A study of Rattus norvegicus with 9 samples.

Results

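This account is about a single contrast in rat lung fibroblasts: postnatal day 7, when the lung is being divided into alveoli, against the average of the days that flank it, day 2 and day 21. The contrast uses all 9 samples of the series, 3 at day 7 and 6 flanking samples (3 at day 2 and 3 at day 21), each hybridised to its own Affymetrix expression array. Every sample was a pool of cells from the pups of a numbered litter, 5 pups per pool at day 2 and 4 pups per pool at days 7 and 21, and no group was treated or carried an engineered allele per the labels. Day 2 was the saccular stage before septation, day 7 fell within secondary septation, and by day 21 secondary septation had ended. No strain is named in the labels. The lungs were dissociated with trypsin and collagenase, and the cells that attached to plastic during a brief plating in serum-containing medium were frozen without further culture, so the samples are adherent lung cells enriched in fibroblasts and not a sorted population.

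Alveoli form when ridges, the secondary septa, grow out of the saccule walls. Fibroblasts at the septal tips are known to lay down elastin, a protein assembled on a microfibril scaffold and crosslinked by lysyl oxidases, and platelet-derived growth factor and fibroblast growth factor signals are known to be needed for them. Other fibroblasts of the septum store lipid droplets and retinoids. After septation the walls thin and fibroblast number falls.

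Throughout, the contrast is the day 7 mean minus the average of the day 2 and day 21 means of log2 intensity, with its SE from limma. A gene is called higher or lower where the limma p, adjusted by Benjamini-Hochberg over 31042 probe sets, is under 0.05. It is said not to overlap where all 3 day 7 arrays lie above, or all 3 below, all 6 flanking arrays. A flanking average can be moved by either of its days, so the day 7 minus day 2 and day 7 minus day 21 differences are given beside the contrast for the genes described. They come from the same arrays and are not further evidence.

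Arrays had median intensities of 37.9 to 50.4, and correlations over all probe sets were 0.976 to 0.988 within a day and 0.880 to 0.974 between days. Markers of fibroblasts were abundant on all arrays. Their list mean was log2 10.19 to 10.38 at day 2, 10.42 to 10.48 at day 7 and 9.67 to 10.06 at day 21. Day 7 thus lay above both flanks without overlap, and the part of this difference in the contrast was not tested. Markers of macrophages, which also stick to plastic, were not absent and differed between days. Their list averaged log2 8.86 to 9.06 at day 2, 7.92, 8.02 and 7.16 on the day 7 arrays, and 9.35 to 9.82 at day 21, so day 7 lay below both flanks without overlap. The 3' to 5' signal difference of the actin control, a measure of RNA integrity, was log2 0.71 to 1.18 at day 7 against 0.51 to 0.80 at day 2 and 0.49 to 0.73 at day 21, and that of the GAPDH control overlapped between days.

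**Figure D1:**
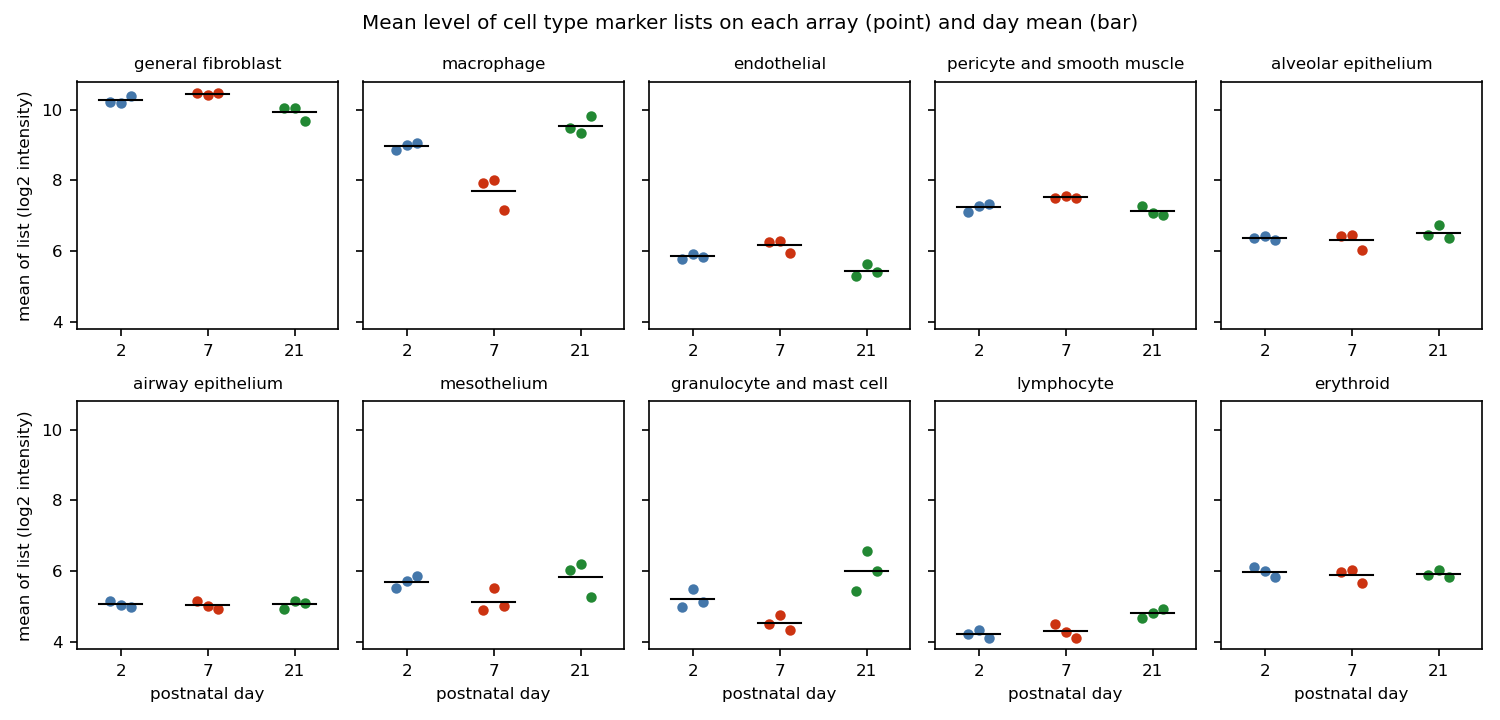
Mean log2 intensity of 10 lists of cell type markers (vertical axis) on each array (points) with the mean of each postnatal day (bars). The macrophage list is lowest on the 3 day 7 arrays, at 7.16 to 8.02. The general fibroblast list is highest on them, at 10.42 to 10.48 against 9.67 to 10.38 on the flanking arrays.

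The contrast asked which genes stood apart while septation was under way. Of 14217 genes, 2927 were called higher at day 7 (20.6%) and 1412 lower (9.93%). In probe sets these were 4851 higher (15.6%) and 2451 lower (7.9%), so 66.4% of the called probe sets were higher. That split depended on the scaling. It was 53.2% when arrays were centred on their medians, a step that shifted the median contrast of all probe sets by -0.10, and 55.7% with further quantile normalization. At least 2-fold from the flanking average were 823 genes higher and 576 lower, and at least 4-fold were 72 and 110.

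Most called genes had day 7 outside both flanks. Without overlap were 2113 of the genes called higher (72.2% of them, 14.9% of all genes) and 1017 of those called lower (72.0% of them, 7.15% of all genes), and the day 7 mean lay between the flanking means for only 65 and 37. The flanks were not at equal distance. Among genes called higher, the median day 7 minus day 2 difference was 0.49 and the median day 7 minus day 21 difference 1.07, and among those called lower the medians were -0.60 and -1.15. Day 2 was the nearer flank for 91.9% of the genes called higher and 86.8% of those called lower, against 71.6% of all genes. At least 2-fold from each flanking mean were 166 of the genes called higher and 299 of those called lower.

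The macrophage list moved with the contrast, and its part in these counts was not tested beyond a fit with its mean as a covariate. The postnatal day accounts for 90.3% of the variance of that list mean, and the covariate raised the median SE of the contrast 2.87 times. With it, limma called 0 probe sets higher and 0 lower, with 2227 higher and 1149 lower at an unadjusted p under 0.05. For the mitosis list the fitted median was 1.03 with the covariate against 1.15 without it, and for the DNA replication list 0.79 against 0.78. The antioxidant list went from -0.40 to -0.09 and class II presentation from -1.50 to -0.02. Lists with positive medians moved both ways, basement membrane from 0.46 to -0.08 and elastic fibre from 0.63 to 0.30. Hox genes and cofactors went from 0.56 to 0.71, and oxidative phosphorylation from 0.37 to 0.66. Single genes of the antioxidant list kept larger values than its median, such as Nqo1 (-2.49 with the covariate, -2.91 without it) and Gstt3 (2.15 and 2.20). In these bulk samples fewer cells of a type and less RNA per cell cannot be told apart.

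**Figure D2:**
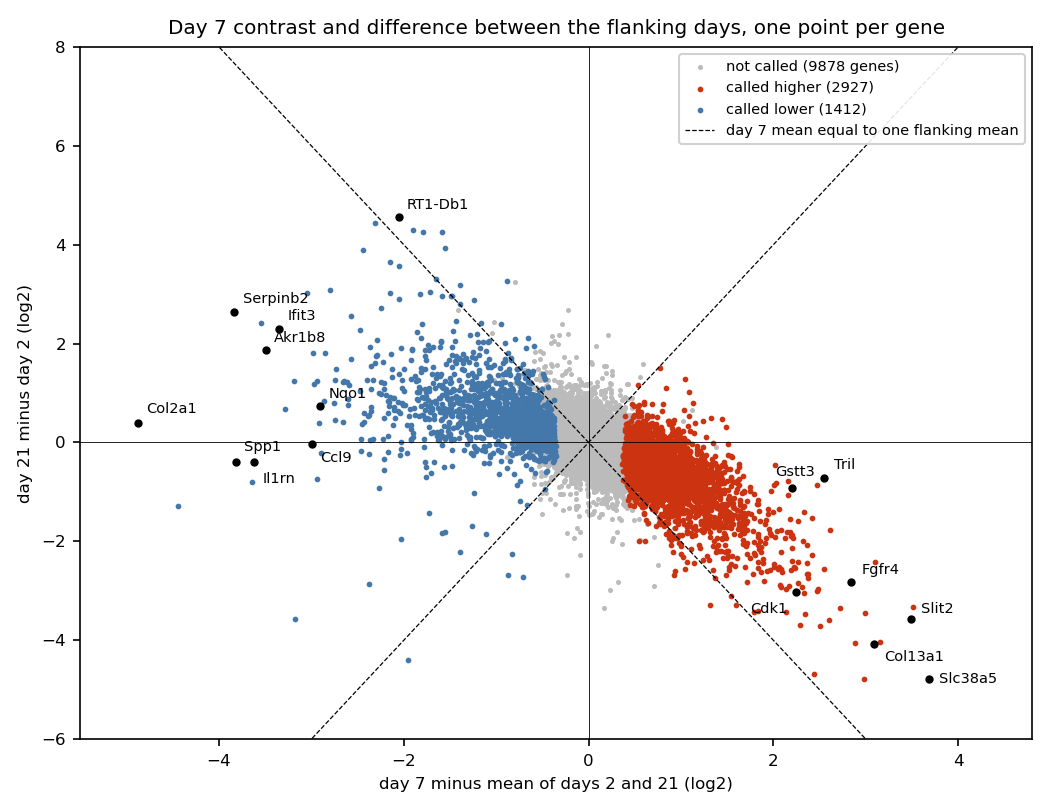
Log2 contrast of day 7 against the flanking average (horizontal axis) and log2 difference of day 21 minus day 2 (vertical axis) for 14217 genes, with genes called higher in red, called lower in blue and named genes in black. Dashed lines mark a day 7 mean equal to a flanking mean, and 65 of the genes called higher and 37 of those called lower lie in the upper and lower wedges, where the day 7 mean falls between the flanking means.

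The largest rise was that of Slc38a5, a transporter of glutamine and other neutral amino acids. It measured log2 9.10, 8.75 and 8.87 on the day 2 arrays, 10.10, 10.01 and 10.47 at day 7, and 3.80, 4.05 and 4.53 at day 21. The contrast was 3.68 ± 0.18 (12.8-fold, limma adjusted p = 1.39e-06), made up of a day 7 minus day 2 difference of 1.29 and a day 7 minus day 21 difference of 6.07. Its day 21 arrays lay near log2 4.25, the 25th percentile of all values and here the low end, where differences are open to background. Slit2, a secreted guidance cue read by Robo receptors, measured 9.01, 8.86 and 8.52 at day 2, 10.58, 10.10 and 10.81 at day 7, and 5.35, 5.67 and 4.64 at day 21. All 3 day 7 arrays were the highest, and the contrast was 3.49 ± 0.23 (11.2-fold, limma adjusted p = 3.96e-06), although another probe set of Slit2 gave -0.024. Col13a1, a transmembrane collagen, followed the same order of days, with a contrast of 3.09 ± 0.18 and differences of 1.05 from day 2 and 5.13 from day 21.

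Further genes among the 15 largest rises code for surface proteins and enzymes. The peptidases Enpep and Mme, which cut angiotensin and other peptides at the cell surface, had contrasts of 2.88 ± 0.21 and 2.50 ± 0.17. Prom1, a membrane protein of cell protrusions, had 3.00 ± 0.27, the secreted protease Adamts19 2.99 ± 0.18, and Car3, a cytosolic carbonic anhydrase, 3.10 ± 0.25. Rprml reached 3.51 ± 0.15 and Unc79, a subunit of a sodium leak channel, 3.16 ± 0.19 (0.41 in its other probe set).

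Tril, a membrane protein that assists toll-like receptor signalling, stood far above each flank. It measured 5.94, 5.98 and 6.19 at day 2, 8.20, 8.05 and 8.43 at day 7, and 5.35, 5.44 and 5.19 at day 21. The contrast was 2.54 ± 0.14 (5.83-fold, limma adjusted p = 1.49e-06), and the nearer flank, day 2, was 4.56-fold lower. Tril had the widest gap to its nearer flank of the genes called higher that have informative symbols. Dnah7 (4.11-fold, from flanking levels below the low end), Car3 (3.72-fold) and Rprml (3.59-fold) were also far from theirs.

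**Figure D3:**
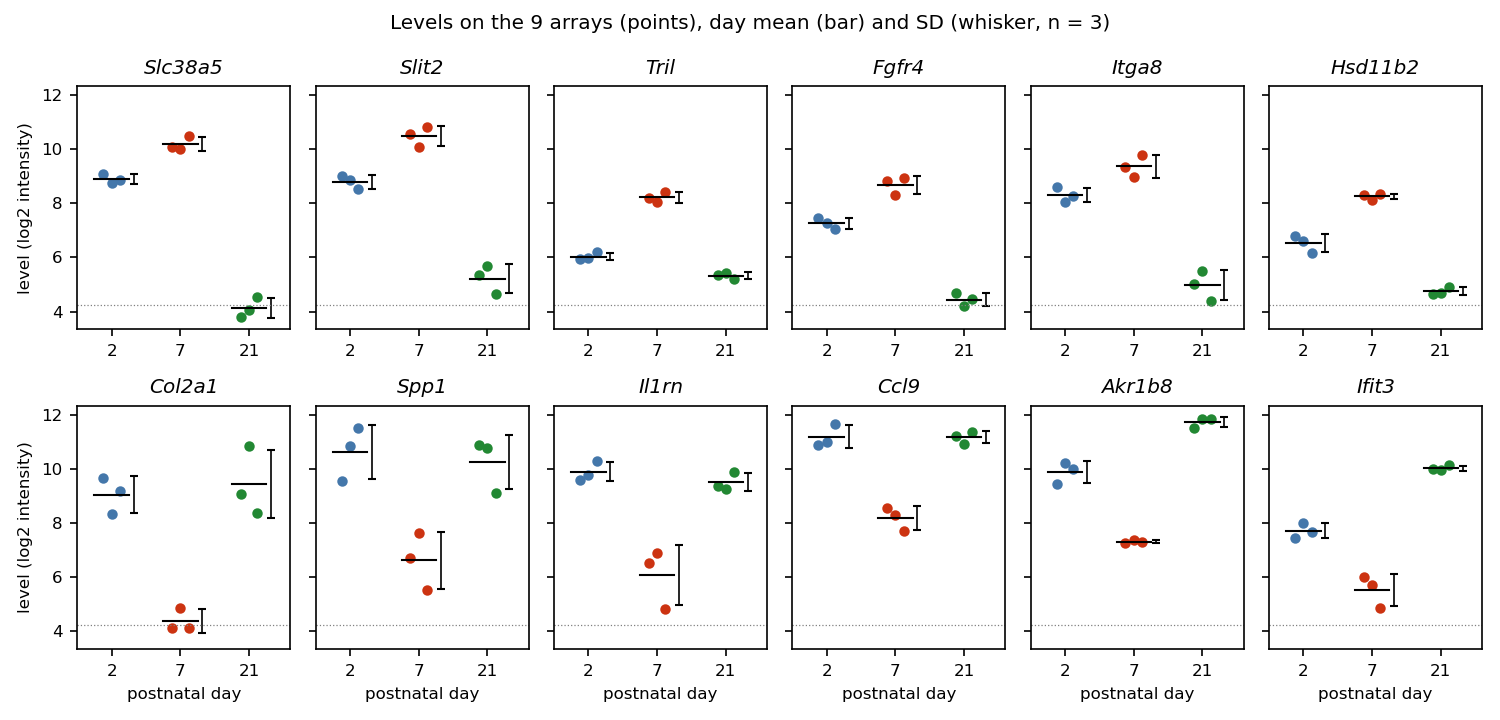
Log2 intensity of 6 genes higher and 6 genes lower at day 7 (vertical axis) on the 9 arrays, by postnatal day, with the mean (bar) and SD (whisker, n = 3 arrays) of each day and a dotted line at the low end of log2 4.25. The day 7 arrays lie outside all flanking arrays in each of the 12 genes, and the day 21 arrays of Slc38a5 and Fgfr4 and the day 7 arrays of Col2a1 reach the low end.

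Some receptors of fibroblast growth factor (FGF) and transcription factors induced by its signal were higher at day 7, and other members of the pathway were not called. Of 26 measured genes of FGF signalling, 10 were called higher and 1 lower (38.5% and 3.85%, against 20.6% and 9.93% of all genes), with a median contrast of 0.31 against 0.04 over all genes. The receptor Fgfr4 measured 7.46, 7.28 and 7.05 at day 2, 8.81, 8.32 and 8.95 at day 7, and 4.69, 4.20 and 4.45 at day 21 (contrast 2.84 ± 0.17, limma adjusted p = 2.74e-06). Fgfr3 measured 8.54, 8.36 and 8.03, then 9.73, 9.27 and 9.74, then 5.56, 6.29 and 5.40 (contrast 2.55 ± 0.21). In both receptors day 7 was the highest of the days, without overlap. Fgfr1, the receptor found most widely in mesenchyme, had a contrast of 0.16 ± 0.22 that was not called (limma adjusted p = 0.698).

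The pathway's ligands and outputs did not all follow the receptors. Etv1 and Etv4, transcription factors induced by FGF signals, had contrasts of 2.21 ± 0.20 and 1.98 ± 0.17, and Spry4, an inhibitor induced by the same signals, 1.22 ± 0.18. Spry4 was about as far from day 2 (1.11) as from day 21 (1.33). Its relatives Spry1 (0.23 ± 0.17) and Spry2 (0.18 ± 0.23), and the phosphatase Dusp6 (0.54 ± 0.20), another output of the pathway, were not called. Fgf12, an intracellular member of the ligand family, was higher (1.61 ± 0.19), whereas the secreted ligands Fgf7 (-0.42 ± 0.16), Fgf9 (0.39 ± 0.17) and Fgf18 (0.16 ± 0.21) did not pass. Fgf7 did pass with arrays centred (-0.52) or quantile normalized (-0.50), and Dusp6 in another probe set (0.89). Fgf18 was lowest at day 2 and highest at day 21, with day 7 differing by 0.94 from the former and by -0.61 from the latter. Flrt2, a membrane protein that binds FGF receptors, was the 1 member called lower (-0.91 ± 0.20).

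Guidance genes steer axons and also vessels and mesenchymal cells. Of 37 measured, 13 were called higher and 1 lower (35.1% and 2.70%, against 20.6% and 9.93% of all genes, median 0.20). Besides Slit2, its receptor Robo2 was higher, at 7.71, 7.62 and 7.35 on the day 2 arrays, 8.82, 8.77 and 8.69 at day 7 and 5.81, 6.17 and 5.42 at day 21 (contrast 2.08 ± 0.17, limma adjusted p = 1.12e-05). Ligand and receptor thus had their highest level on the same day. The netrin receptor Unc5c had a contrast of 2.27 ± 0.19 and the ephrin Efna5 one of 1.71 ± 0.18 (0.01 in its other probe set). Nrp2, a co-receptor for semaphorins and vascular growth factors, was lower at day 7 than in either flank (-1.08 ± 0.15).

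Among 20 angiogenic genes, 8 were called higher and 2 lower (40% and 10%, against 20.6% and 9.93% of all genes, median 0.25). The secreted factors Mdk (midkine, 2.37 ± 0.20) and Vegfd (2.34 ± 0.14) led. Epas1, which codes for the hypoxia-inducible factor HIF-2 alpha, was higher (1.47 ± 0.20) while Hif1a, which codes for HIF-1 alpha, was lower (-0.92 ± 0.12). Epas1 measured 10.37, 10.41 and 9.70 at day 2, 11.35, 10.98 and 11.11 at day 7 and 9.44, 9.35 and 8.82 at day 21, and Hif1a measured 10.91, 10.90 and 11.01, then 10.27, 10.19 and 10.13, then 11.30, 11.44 and 11.15. The day 7 arrays of each gene lay outside all flanking arrays, in opposite directions. Another probe set of Epas1 gave 0.19 and was not called.

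Of 35 Wnt genes, 12 were called higher and 1 lower (34.3% and 2.86%, against 20.6% and 9.93% of all genes). The median of the list, 0.09, changed sign when arrays were centred on their medians and when day 7 array 1 was left out (-0.02 each). The ligand Wnt2, expressed in lung mesenchyme, measured 6.58, 6.16 and 6.90 at day 2, 7.67, 7.48 and 8.36 at day 7 and 3.80, 4.61 and 4.44 at day 21 (contrast 2.42 ± 0.24, limma adjusted p = 3.6e-05). The receptor Fzd1 (1.13 ± 0.16) and the feedback inhibitor Nkd2 (0.92 ± 0.14) were also higher, and the secreted antagonist Sfrp2 was the member called lower (-1.26 ± 0.26). Of 21 genes of bone morphogenetic protein (BMP) signalling, 9 were called higher and 0 lower (42.9% higher, median 0.37). They include the extracellular modulator Bmper (1.83 ± 0.18), the ligand Bmp7 (1.37 ± 0.21) and the signal transducer Smad9 (1.02 ± 0.21, but 0.01 in another probe set). Bmp7 overlapped with day 2. The hedgehog effectors Gli2 (1.32 ± 0.20) and Gli1 (1.06 ± 0.17) were called higher among 3 of 11 members (27.3%), while the list median was -0.12, and 0.03 without day 7 array 3. Gli1 was only 0.16 above day 2 and 1.96 above day 21. Of 18 genes of transforming growth factor beta signalling, 3 were called higher and 2 lower (16.7% and 11.1%, near the shares of all genes, and 4 lower with quantile normalization). The ligand Tgfb1 (-1.77 ± 0.38) and the activin subunit Inhba (-1.35 ± 0.23, -0.12 in another probe set) were lower, and the vascular receptor Acvrl1 (1.00 ± 0.14) was higher.

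The contrast split the elastic fibre genes. Of 18 measured, 9 were called higher and 3 lower (50% and 16.7%, against 20.6% and 9.93% of all genes, median 0.63). Without overlap were 5 of the former and 2 of the latter, against 72.2% and 72.0% of all genes called higher and lower. Fbln5, which brings elastin to microfibrils, measured 9.80, 9.57 and 10.18 at day 2, 10.48, 10.31 and 11.16 at day 7 and 7.78, 7.32 and 6.78 at day 21 (contrast 2.08 ± 0.24, limma adjusted p = 9.43e-05). Its day 7 arrays were the highest of all 9. The microfibril genes Mfap4 (1.35 ± 0.17) and Fbn1 (0.89 ± 0.19), and Efemp2, which codes for fibulin-4 (1.28 ± 0.15), were likewise higher without overlap. Fbn2 (1.60 ± 0.18), Mfap2 (1.28 ± 0.22) and Emilin1 (1.58 ± 0.22) were called higher but overlapped with day 2, and for Fbn2 the day 7 minus day 2 difference was -0.04.

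Elastin itself did not stand apart at day 7. Eln measured 11.47, 11.30 and 11.85 at day 2, 11.83, 11.74 and 11.91 at day 7 and 11.97, 11.99 and 11.68 at day 21 (contrast 0.12 ± 0.15, limma adjusted p = 0.672). The 3 days overlapped. Members called lower were Emilin2 (-1.69 ± 0.25), Fbln2 (-1.28 ± 0.20) and Efemp1 (-0.84 ± 0.17), all extracellular glycoproteins of elastic fibres or basement membranes. Fbln2 was nearly as far below day 2 (-1.23) as below day 21 (-1.34), whereas Efemp1 was level with day 2 (0.01) and below day 21 (-1.69). Fbln1 (0.71 ± 0.27), Ltbp1 (-0.19 ± 0.15), Ltbp4 (-0.12 ± 0.30), Mfap5 (-0.11 ± 0.15) and Mfap3 (0.00 ± 0.12) did not pass. Fbln1 did pass in another probe set, at 1.55.

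Enzymes that mature and crosslink collagen and elastin were called higher in 8 of 13 and lower in 0 (61.5% higher, against 20.6% of all genes, median 0.61). That count fell to 4 with arrays centred on their medians and without day 7 array 2 or 3, and to 5 without day 7 array 1. Loxl1, the lysyl oxidase tied to elastin, held with the widest margin. It measured 11.00, 11.00 and 11.13 at day 2, 11.87, 11.83 and 11.99 at day 7 and 9.95, 9.94 and 9.51 at day 21 (contrast 1.48 ± 0.14, limma adjusted p = 2.42e-05). Loxl2 was called higher too (0.95 ± 0.20) and overlapped with day 2.

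**Figure D4:**
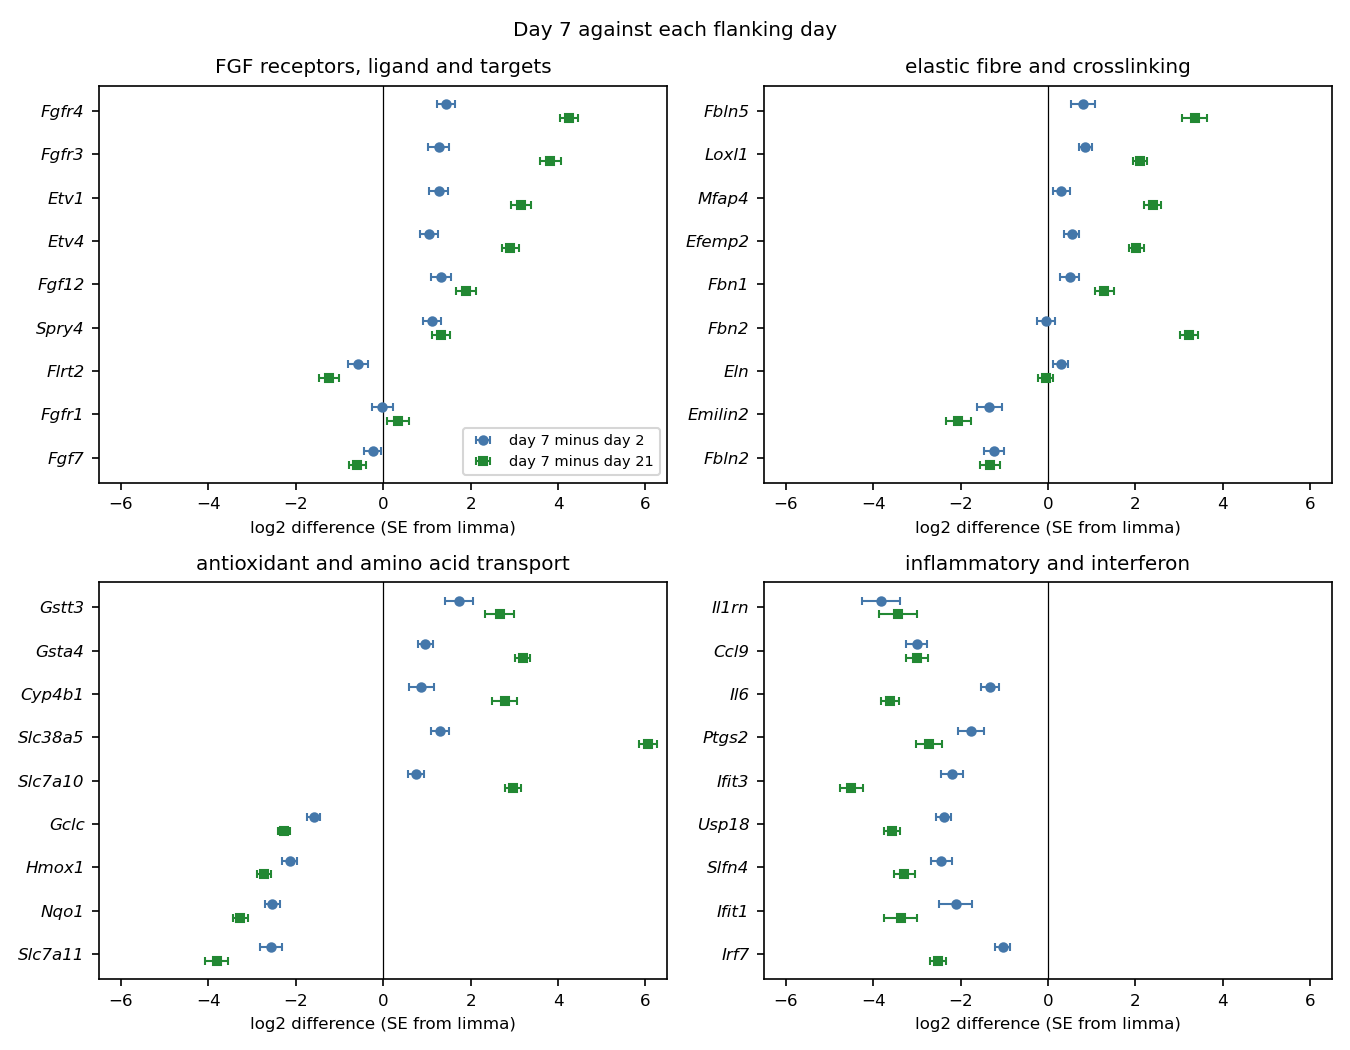
Log2 difference of day 7 minus day 2 (blue circles) and day 7 minus day 21 (green squares), each with its SE from limma, for 36 genes of 4 groups. Spry4, Fbln2 and Ccl9 lie at similar distances from each flank, Eln and Fgfr1 lie near 0 on each, and Fbn2 lies near 0 only against day 2.

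The main interstitial collagens did not pass the test. Col1a1 (-0.32 ± 0.23), Col1a2 (-0.01 ± 0.16), Col3a1 (-0.01 ± 0.12), Col6a1 (0.06 ± 0.21), Col6a2 (-0.29 ± 0.31), Col6a3 (0.35 ± 0.18), Col5a2 (0.36 ± 0.16) and Col14a1 (0.00 ± 0.21) were not called. Their levels were among the high values of the arrays, Col3a1 for instance at 12.92 to 13.08 on day 2, 13.01 to 13.11 on day 7 and 13.04 to 13.28 on day 21. A second probe set of Col1a2 gave 0.53 and was called (limma adjusted p = 0.0242), and a second of Col5a2 gave 0.68. Of the 12 fibrillar and type VI collagens 3 were called higher and 1 lower (25% and 8.33%, near the 20.6% and 9.93% of all genes). Those higher were Col12a1 (0.85 ± 0.21), Col5a1 (0.83 ± 0.22) and Col16a1 (0.81 ± 0.19), and Col5a3 was lower (-0.95 ± 0.26). Without day 7 array 2 the call of Col12a1 was lost (limma adjusted p = 0.0613), and without day 7 array 3 those of Col5a1 (0.0774) and Col5a3 (0.0947). Of 9 non-fibrillar collagens 4 were called higher (44.4%) and 1 lower (11.1%). Those higher were led by the transmembrane collagens Col13a1 and Col25a1 (2.60 ± 0.24).

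Basement membrane genes were called higher in 7 of 18 and lower in 0 (38.9% higher, against 20.6% of all genes, median 0.46). Agrn, a heparan sulphate proteoglycan, and Nid1, which links laminin to collagen IV, each had a contrast of 1.45 ± 0.19, and the laminin chain Lamb1 had 1.16 ± 0.16. A second probe set of Nid1 gave 0.39 and was not called. Tnc, tenascin C of remodelling mesenchyme, was higher (1.55 ± 0.17), mainly against day 21. Of 12 ADAMTS proteases, 6 were called higher and 0 lower (50% higher, median 0.71), among them Adamts7 (1.23 ± 0.15). Integrins were called higher in 5 of 12 and lower in 1 (41.7% and 8.33%, the latter against 9.93% of all genes). Itga8, a receptor chain of lung interstitial fibroblasts, measured 8.59, 8.07 and 8.28 at day 2, 9.35, 8.96 and 9.78 at day 7 and 5.02, 5.49 and 4.40 at day 21 (contrast 2.72 ± 0.24, limma adjusted p = 1.81e-05). Itga1, a collagen receptor chain, had 1.68 ± 0.38.

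Matrix metalloproteinases, which degrade matrix proteins, and their inhibitors were called in both directions, 5 of 21 higher and 5 lower (23.8% each, against 20.6% and 9.93% of all genes). The median of the list, -0.06, changed sign with dim probe sets left out (0.08) and without array 3 of day 2, 7 or 21 (0.01 to 0.05). The collagen- and elastin-degrading members Mmp13 (-2.98 ± 0.23), Mmp3 (-2.60 ± 0.36) and Mmp12 (-2.35 ± 0.22) were lower at day 7 than on any flanking array, while Reck, a membrane-anchored inhibitor of such proteases, was higher (1.12 ± 0.15). Mmp13 and Mmp3 were below the low end at day 7. Mmp12, known as the macrophage elastase, measured 10.18, 10.79 and 10.89 at day 2, 8.30, 9.20 and 8.27 at day 7 and 11.22, 11.28 and 11.29 at day 21. The macrophage list moved in the same direction, and its part in the change of Mmp12 was not tested.

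Septal fibroblasts are classically divided into contractile and lipid-storing types. Of 22 contractile myofibroblast genes, 4 were called higher and 0 lower (median 0.15), a share near that of all genes, and 2 higher without day 7 array 2. Without day 21 array 3, 3 members were called lower. Myh10, a non-muscle myosin heavy chain, measured 10.13, 10.09 and 10.09 at day 2, 11.21, 11.06 and 11.12 at day 7 and 9.71, 9.91 and 9.03 at day 21 (contrast 1.31 ± 0.18, limma adjusted p = 0.000231), and Mylk, the kinase of myosin light chains, had 0.85 ± 0.14. Of 24 lipid-storing fibroblast genes, 3 were called higher and 10 lower (12.5% and 41.7%, against 20.6% and 9.93% of all genes, median -0.17). Without day 7 array 3, 1 was called higher and 6 lower. The transcription factor Tcf21 was higher (1.67 ± 0.23). Those lower included the fatty acid carriers Fabp4 (-2.94 ± 0.28) and Fabp5 (-1.68 ± 0.20), the lipase Lpl (-1.93 ± 0.22), the droplet coat protein Plin2 (-0.98 ± 0.15) and the adipogenic receptor Pparg (-0.98 ± 0.15). Macrophages are known to express all 5, the macrophage list was lowest at day 7, and its part in these falls was not tested.

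The platelet-derived growth factor receptor Pdgfra, a marker of septal myofibroblast precursors, measured 8.77, 8.76 and 8.55 at day 2, 9.34, 9.14 and 8.97 at day 7 and 8.02, 8.06 and 7.16 at day 21 (contrast 0.93 ± 0.20, limma adjusted p = 0.00452). It was highest at day 7 without overlap. Pdgfrb was called at the margin (0.53 ± 0.18, limma adjusted p = 0.0493). Leaving out any array other than day 2 array 3 ended its call (contrasts of 0.36 to 0.64), as did either scaling, and a further probe set of it gave -0.19. The ligands Pdgfa (-0.22 ± 0.15), Pdgfc (-0.12 ± 0.22) and Pdgfd (-0.27 ± 0.20) did not pass.

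Of 19 retinoid genes, 3 were called higher and 0 lower, below the share of all genes. These were the retinoic acid binder Crabp1 (1.75 ± 0.17), the receptor Rxrg (1.51 ± 0.25, but 0.21 in another probe set) and the retinaldehyde dehydrogenase Aldh1a1 (1.20 ± 0.31), whose call was lost without day 7 array 1 (limma adjusted p = 0.0736) or 3 (0.0744). Rarb (0.44 ± 0.21) and Aldh1a2, the main retinoic acid synthesising enzyme of lung mesenchyme (0.10 ± 0.22), did not pass. Rxrg was 1.50 above day 2 and 1.53 above day 21.

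Glucocorticoids, which are known to hold back septation, are activated by the product of Hsd11b1 and inactivated by that of Hsd11b2, and both genes were higher at day 7. Hsd11b2 measured 6.80, 6.62 and 6.18 at day 2, 8.29, 8.14 and 8.34 at day 7 and 4.66, 4.69 and 4.91 at day 21 (contrast 2.61 ± 0.15, limma adjusted p = 2.09e-06). Hsd11b1 measured 10.91, 10.45 and 10.29, then 11.31, 11.19 and 11.46, then 7.95, 7.89 and 8.15 (contrast 2.05 ± 0.16). Of 12 genes of the glucocorticoid list, 4 were called higher and 2 lower (33.3% and 16.7%, against 20.6% and 9.93% of all genes). Target genes of the receptor differed, with Pck1, the gluconeogenic carboxykinase, higher (2.16 ± 0.31) from flanking levels near the low end and the kinase Sgk1 lower (-0.70 ± 0.13).

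The subunits of soluble guanylate cyclase, the receptor of nitric oxide, were higher together. Gucy1a1 had a contrast of 1.94 ± 0.24 and Gucy1b1 one of 1.34 ± 0.20, each without overlap. They were among 4 of 18 nitric oxide and cGMP genes called higher, a share near that of all genes, and that count was 2 without day 7 array 1 or 2. In the angiotensin and peptidase list 5 of 14 were called higher and 2 lower (35.7% and 14.3%, against 20.6% and 9.93% of all genes). With quantile normalization 5 were called lower. The angiotensin receptor Agtr1a was higher (1.45 ± 0.16), and the aminopeptidase Anpep, a protein of fibroblasts and myeloid cells, was lower (-2.22 ± 0.19).

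Transcription factors of lung mesenchyme were called higher in 13 of 40 and lower in 2 (32.5% and 5%, against 20.6% and 9.93% of all genes). Their median was 0.15, but 0.04 with arrays centred and 0.26 without day 7 array 3. Tbx5 and Tbx4, which act in lung bud and airway mesenchyme, had contrasts of 1.79 ± 0.14 and 0.89 ± 0.15. Tbx5 measured 7.78, 7.51 and 7.53 at day 2, 8.82, 9.12 and 8.70 at day 7 and 6.63, 6.68 and 6.41 at day 21, and Tbx4 measured 8.79, 9.01 and 9.10, then 9.66, 9.74 and 10.07, then 9.01, 8.97 and 8.69. Tbx4 stood about equally far above day 2 (0.85) and day 21 (0.93). The nuclear receptor Nr2f1 was higher (1.84 ± 0.28), and Hmga1, a chromatin protein of growing cells, was lower (-1.28 ± 0.20).

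Hox genes and their cofactors, which carry positional identity, were called higher in 10 of 19 and lower in 0 (52.6% higher, median 0.56). The higher count was 6 with arrays centred on their medians. Hoxa5, needed for normal lung development, measured 8.10, 8.55 and 8.25 at day 2, 8.99, 9.33 and 9.33 at day 7 and 8.02, 8.18 and 7.72 at day 21 (contrast 1.08 ± 0.16, limma adjusted p = 0.000394). The cofactors Meis2 (1.47 ± 0.20) and Meis1 (1.00 ± 0.17) and Hoxb6 (0.99 ± 0.16) were also above all flanking arrays. Imprinted growth genes were called higher in 7 of 15 and lower in 3 (46.7% and 20%). The shares of all genes were 20.6% and 9.93%. Without day 7 array 3, 1 imprinted gene was called lower. Ndn (1.48 ± 0.15) and the cell cycle inhibitor Cdkn1c (0.97 ± 0.13) were higher, whereas the fetal growth factor Igf2 was lower (-1.59 ± 0.28), more against day 2 (-2.51) than against day 21 (-0.68). Other probe sets of Igf2 gave -0.20 and 0.13.

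Proliferation genes had the highest shares called higher of the lists described. Of 41 mitosis genes, 36 were called higher and 0 lower (87.8%, against 20.6% of all genes), with a median of 1.15, and of 37 DNA replication genes 23 were called higher and 0 lower (62.2%, median 0.78). The difference from day 2 was the smaller part. The median mitosis gene was 0.35 above day 2 and 2.11 above day 21. Of the 36, 22 did not overlap with either flank, against 72.2% of all genes called higher. The mitotic kinase Cdk1 measured 7.92, 8.42 and 8.23 at day 2, 8.73, 9.04 and 8.97 at day 7 and 4.98, 4.90 and 5.59 at day 21 (contrast 2.24 ± 0.18, limma adjusted p = 1.12e-05). Top2a, the topoisomerase that untangles chromosomes, measured 7.74, 7.72 and 7.78, then 8.57, 8.43 and 8.65, then 5.05, 5.29 and 5.35 (contrast 2.06 ± 0.13). In these genes all day 7 arrays were above all day 2 arrays by a small margin and above all day 21 arrays by a wide one.

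Other cell cycle genes followed. Ccnb2, a mitotic cyclin (1.86 ± 0.14), and Kif20a, a kinesin of cytokinesis (1.83 ± 0.16), were higher, as were Pola2, a subunit of the replicative polymerase (1.47 ± 0.12), and the nucleotide enzymes Tyms (1.50 ± 0.18) and Dut (1.16 ± 0.14, but 0.06 in another probe set). Of 21 cell cycle inhibitors, D cyclins and related genes, 9 were called higher and 3 lower (42.9% and 14.3%, median 0.24). The shares of all genes were 20.6% and 9.93%, and 6 list members were called higher without day 7 array 2. The inhibitors Cdkn2c (1.09 ± 0.13) and Cdkn1c (0.97 ± 0.13) were higher, while Cdkn1a, which codes for the inhibitor p21, was lower (-0.73 ± 0.14). Oxidative phosphorylation genes were called higher in 14 of 33 and lower in 0 (42.4% higher, median 0.37). The higher count was 6 with arrays centred and 8 without day 7 array 2.

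Promoters of mitotic genes are known for a TTTGAA element, the cell cycle homology region, placed near the start site together with CCAAT boxes. Windows of 250 bases before to 50 after the start site were found for 31 of the 36 mitosis genes called higher. The letters TTTGAA, on either strand and with overlaps allowed, occurred in 21 of the 31 (67.7%) and in 0 of 19 windows of the DNA replication genes called higher, against 18.1% of all 27457 windows and 12.3% of the 11700 windows of genes measured here. CCAAT occurred in 23 of the 31 (74.2%) and in 10 of the 19 replication windows (52.6%), against 37.7% of all windows and 37.3% of those of genes measured here. A match describes the letters and does not show that a factor binds. The lists are of known cell cycle genes, and no share was taken for their other members, so these shares do not bear on the day 7 levels. The 3 windows below are from RefSeq on GRCr8, the 150 bases before the start site in the direction of the gene, and show where the letters fall in genes whose day 7 arrays were all the highest. Capitals mark TTTGAA and CCAAT or, for a match on the other strand, their reverse complements. The windows are chr20:19265143-19265292 (plus strand) for Cdk1, chr8:79981659-79981808 (minus strand) for Ccnb2 and chr10:84473094-84473243 (minus strand) for Top2a.
Cdk1: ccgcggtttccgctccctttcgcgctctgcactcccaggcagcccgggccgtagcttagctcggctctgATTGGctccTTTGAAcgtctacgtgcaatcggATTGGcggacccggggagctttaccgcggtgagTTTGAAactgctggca
Ccnb2: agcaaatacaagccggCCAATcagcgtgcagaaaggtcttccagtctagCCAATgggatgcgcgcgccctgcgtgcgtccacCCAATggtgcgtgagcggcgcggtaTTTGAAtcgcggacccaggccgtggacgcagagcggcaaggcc
Top2a: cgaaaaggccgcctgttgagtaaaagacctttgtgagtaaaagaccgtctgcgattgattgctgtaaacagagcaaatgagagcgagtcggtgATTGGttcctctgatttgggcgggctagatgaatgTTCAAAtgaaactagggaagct

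Among genes lower at day 7, cartilage genes held the largest fall. Of 15 cartilage matrix genes, 9 were called lower and 0 higher (60%, against 9.93% of all genes), with a median of -0.93. Col2a1, the main collagen of cartilage, measured 9.66, 8.34 and 9.17 at day 2, 4.13, 4.88 and 4.11 at day 7 and 9.09, 10.84 and 8.39 at day 21 (contrast -4.88 ± 0.45, 29.4-fold lower, limma adjusted p = 2.29e-05). It was high in all 6 flanking pools and at or near the low end in all 3 day 7 pools, while a dimmer probe set of it gave -0.14. Col9a1 (-4.45 ± 0.52), Col9a3 (-3.64 ± 0.44), Col9a2 (-2.21 ± 0.42), which form the collagen IX of cartilage fibrils, and the chondrocyte protein Cnmd (-2.65 ± 0.48) fell with it. The list mean was 5.75 to 6.58 at day 2, 4.25 to 4.68 at day 7 and 5.58 to 6.96 at day 21. Cartilage of the airways is the known source of these proteins in lung, and the share of such cells in the pools was not measured.

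Macrophage genes were called lower in 29 of 30 and higher in 0 (96.7% lower, against 9.93% of all genes, median -1.61). Cd68, a lysosomal protein of macrophages, measured 9.82, 10.21 and 10.56 at day 2, 8.48, 8.51 and 7.72 at day 7 and 10.79, 10.26 and 11.04 at day 21 (contrast -2.22 ± 0.23, limma adjusted p = 5.21e-05). The Fc receptor Fcgr2b (-2.90 ± 0.33) and the integrin chains Itgam (-2.46 ± 0.40) and Itgax (-2.17 ± 0.22) were lower by similar amounts. Other defining markers changed less. Ptprc, the pan-leukocyte CD45, had -1.75 ± 0.29, Adgre1, a surface receptor of macrophages, -1.22 ± 0.21 with overlap at day 2, and Csf1r, the receptor that macrophages need for survival, -0.95 ± 0.20. Day 7 array 3 had the lowest level of Cd68, Itgax, Ptprc, Adgre1 and Csf1r.

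Inflammatory cytokines and chemokines were called lower in 26 of 42 and higher in 1 (61.9% lower, against 9.93% of all genes, median -1.13). Il1rn, the antagonist of the interleukin 1 receptor, measured 9.61, 9.79 and 10.31 at day 2, 6.54, 6.90 and 4.82 at day 7 and 9.38, 9.26 and 9.89 at day 21 (contrast -3.62 ± 0.37, limma adjusted p = 4.48e-05). Ccl9, a chemokine of myeloid cells, measured 10.91, 11.02 and 11.68, then 8.55, 8.32 and 7.72, then 11.23, 10.95 and 11.37 (limma adjusted p for the contrast = 6.44e-06). Both were at like levels on the flanking days and low only at day 7, with Ccl9 differing by -3.01 from day 2 and by -2.99 from day 21. Il6 (-2.47 ± 0.18) and the prostaglandin synthase Ptgs2 (-2.25 ± 0.26), which fibroblasts also express, were lower than on any flanking array.

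Spp1, or osteopontin, had the fourth largest fall among genes without overlap. It measured 9.55, 10.84 and 11.52 at day 2, 6.70, 7.64 and 5.54 at day 7 and 10.88, 10.77 and 9.11 at day 21 (contrast -3.82 ± 0.53, limma adjusted p = 0.00027). Its arrays spread by about 2 log2 units within each day, so the size of its fall is less sure than those of Il7r, an interleukin receptor chain (-3.29 ± 0.17), or Cst7, a cystatin of leukocytes (-3.55 ± 0.24). The plasminogen activator inhibitor Serpinb2 (-3.84 ± 0.30) and the lysosomal channel Mcoln2 (-3.05 ± 0.17) fell to below the low end. Macrophages are known to express most of these genes, and the part of the lower macrophage markers in their falls was not tested.

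Genes of antigen presentation on class II molecules followed another course. Of 12, 8 were called lower and 0 higher (66.7% lower, against 9.93% of all genes, median -1.50). The median member, however, differed from day 2 by 0.04 and from day 21 by -1.87. RT1-Db1 measured 6.58, 6.35 and 6.16 at day 2, 6.11, 7.45 and 6.18 at day 7 and 10.80, 10.94 and 11.00 at day 21 (contrast -2.06 ± 0.26). Day 2 and day 7 overlapped, so this call came from the day 21 level. RT1-Ba behaved alike (0.25 above day 2 and -4.05 against day 21), with other probe sets of it not called. The mast cell genes Cpa3 (-2.44 ± 0.39) and Mcpt10 (-2.31 ± 0.43) had this shape too, being high only at day 21. The neutrophil gene S100a9 (-2.38 ± 0.53) was instead highest at day 2.

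Interferon response genes were called lower in 25 of 35 and higher in 2 (71.4% lower, against 9.93% of all genes, median -1.08). Of the 25, 21 did not overlap, against 72.0% of all genes called lower. Ifit3, an RNA-binding protein of the antiviral response, measured 7.46, 8.02 and 7.69 at day 2, 6.01, 5.72 and 4.86 at day 7 and 9.99, 9.96 and 10.14 at day 21 (contrast -3.35 ± 0.22, limma adjusted p = 4.29e-06). Irf7, the transcription factor that amplifies the response, measured 6.77, 7.09 and 7.31, then 6.18, 5.83 and 6.07, then 8.51, 8.67 and 8.45 (contrast -1.78 ± 0.15). In each of these genes day 7 was the lowest day and day 21 the highest. Usp18 (-2.97 ± 0.15) and Isg15 (-2.73 ± 0.22), a protease and the ubiquitin-like protein it removes, and Rsad2, the antiviral enzyme viperin (-2.60 ± 0.22), fell alike. Slfn4 (-2.86 ± 0.21), a growth regulator of myeloid cells, did so in its brighter probe set and gave -0.11 in the other. The median member was 0.73 below day 2 and 1.47 below day 21. The macrophage list moved in the same direction, and its part in these falls was not tested.

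The interferon-stimulated response element, here taken as 2 copies of GAAA separated by any 2 bases, on either strand with overlaps allowed, is bound by interferon regulatory factors and their complexes. It was found in 12 of the 21 promoter windows available for the interferon genes called lower (57.1%), against 3.77% of all 27457 windows and 2.99% of those of genes measured here. The list is of known interferon response genes, and no share was taken for its other members. The share therefore describes the list and does not bear on its day 7 levels. The windows below, 150 bases each from RefSeq on GRCr8, are examples picked because they hold the element, from genes that were lower on all 3 day 7 arrays than on any flanking array. Capitals mark the element, which in all 3 lies on the other strand and so appears as its reverse complement. They are chr1:241527176-241527325 (plus strand) for Ifit3 and chr1:205800024-205800173 (minus strand) for Irf7, which end at the base before the start site, and chr6:48788171-48788320 (minus strand) for Rsad2, which covers positions -200 to -51. Counted from the start site, its first printed base is at position -44 in Ifit3, -69 in Irf7 and -147 in Rsad2.
Ifit3: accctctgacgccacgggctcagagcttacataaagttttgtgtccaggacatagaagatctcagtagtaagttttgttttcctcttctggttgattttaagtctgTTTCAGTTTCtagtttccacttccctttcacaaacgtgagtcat
Irf7: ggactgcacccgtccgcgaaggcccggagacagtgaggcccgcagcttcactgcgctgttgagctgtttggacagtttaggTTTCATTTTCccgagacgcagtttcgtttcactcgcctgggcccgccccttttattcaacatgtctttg
Rsad2: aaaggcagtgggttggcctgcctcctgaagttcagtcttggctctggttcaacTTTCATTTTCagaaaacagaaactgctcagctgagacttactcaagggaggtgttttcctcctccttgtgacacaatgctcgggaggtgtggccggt

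Antioxidant and detoxifying genes were called lower in 17 of 37 and higher in 7 (45.9% and 18.9%, against 9.93% and 20.6% of all genes, median -0.40). Nqo1, Hmox1, Srxn1 and Gclc, all called lower, are known targets of NRF2, the transcription factor that answers oxidants. Nqo1, a quinone reductase, measured 10.36, 10.49 and 10.93 at day 2, 8.19, 8.07 and 7.91 at day 7 and 11.22, 11.42 and 11.34 at day 21 (contrast -2.91 ± 0.15, 7.50-fold lower, limma adjusted p = 1.49e-06). Hmox1, which breaks down haem, measured 11.64, 11.51 and 11.72, then 9.63, 9.56 and 9.26, then 12.25, 11.98 and 12.41 (contrast -2.44 ± 0.14). Day 7 was more than 4-fold below each flank in both genes. Srxn1, which repairs peroxiredoxins (-2.74 ± 0.15, and -0.17 in another probe set), and Gclc, the rate-limiting enzyme of glutathione synthesis (-1.93 ± 0.12), were lower too, and Akr1b8, an aldo-keto reductase, had the smallest adjusted p among the 15 largest falls (-3.50 ± 0.17, limma adjusted p = 1.39e-06).

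Those higher were other detoxifying enzymes. Gstt3, a theta class glutathione transferase, measured 7.23, 7.07 and 7.47 at day 2, 9.27, 8.48 and 9.23 at day 7 and 6.90, 5.51 and 6.57 at day 21 (contrast 2.20 ± 0.28, limma adjusted p = 0.000159). It was above each flank without overlap. Gsta4, which conjugates lipid aldehydes (2.08 ± 0.15), and the cytochrome Cyp4b1 (1.83 ± 0.25) were higher as well. The letters TGAC and GC, separated by any 3 bases, of the antioxidant response element occurred in 3 of 12 windows of the genes called lower (25%), against 12.2% of all windows and 14.4% of those of genes measured here. With 12 windows this share is imprecise. The 3 windows were those of Gclm, Sod2 and Mt2A, and no match was found for Nqo1, Hmox1, Srxn1 or Gclc.

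Amino acid transporters were called lower in 11 of 25 (44%) and higher in 6 (24%, near the share of all genes), with a median of -0.27. Slc7a11, the cystine importer that feeds glutathione synthesis, measured 7.77, 7.98 and 8.38 at day 2, 6.07, 5.44 and 4.92 at day 7 and 9.35, 9.39 and 9.11 at day 21 (contrast -3.19 ± 0.23, limma adjusted p = 5.75e-06). The arginine transporter Slc7a2 (-1.76 ± 0.20) and the neutral amino acid exchanger Slc7a8 (-1.72 ± 0.15) were lower with it. Slc38a5 and Slc7a10, a transporter of alanine and serine (1.87 ± 0.16), were called higher. Glycolysis and hypoxia genes were called lower in 10 of 24 and higher in 3 (41.7% and 12.5%, against 9.93% and 20.6% of all genes, median -0.43). The glucose importer Slc2a1 (-1.60 ± 0.13), the lactate exporter Slc16a3 (-2.17 ± 0.26) and the glycolytic kinases Pfkp (-1.46 ± 0.14) and Hk1 (-1.31 ± 0.18, -0.01 in another probe set) were lower at day 7 than on any flanking array. Macrophage markers were lowest on the same 3 arrays, and their part in the lower antioxidant, transport and glycolysis genes was not tested.

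**Figure D5:**
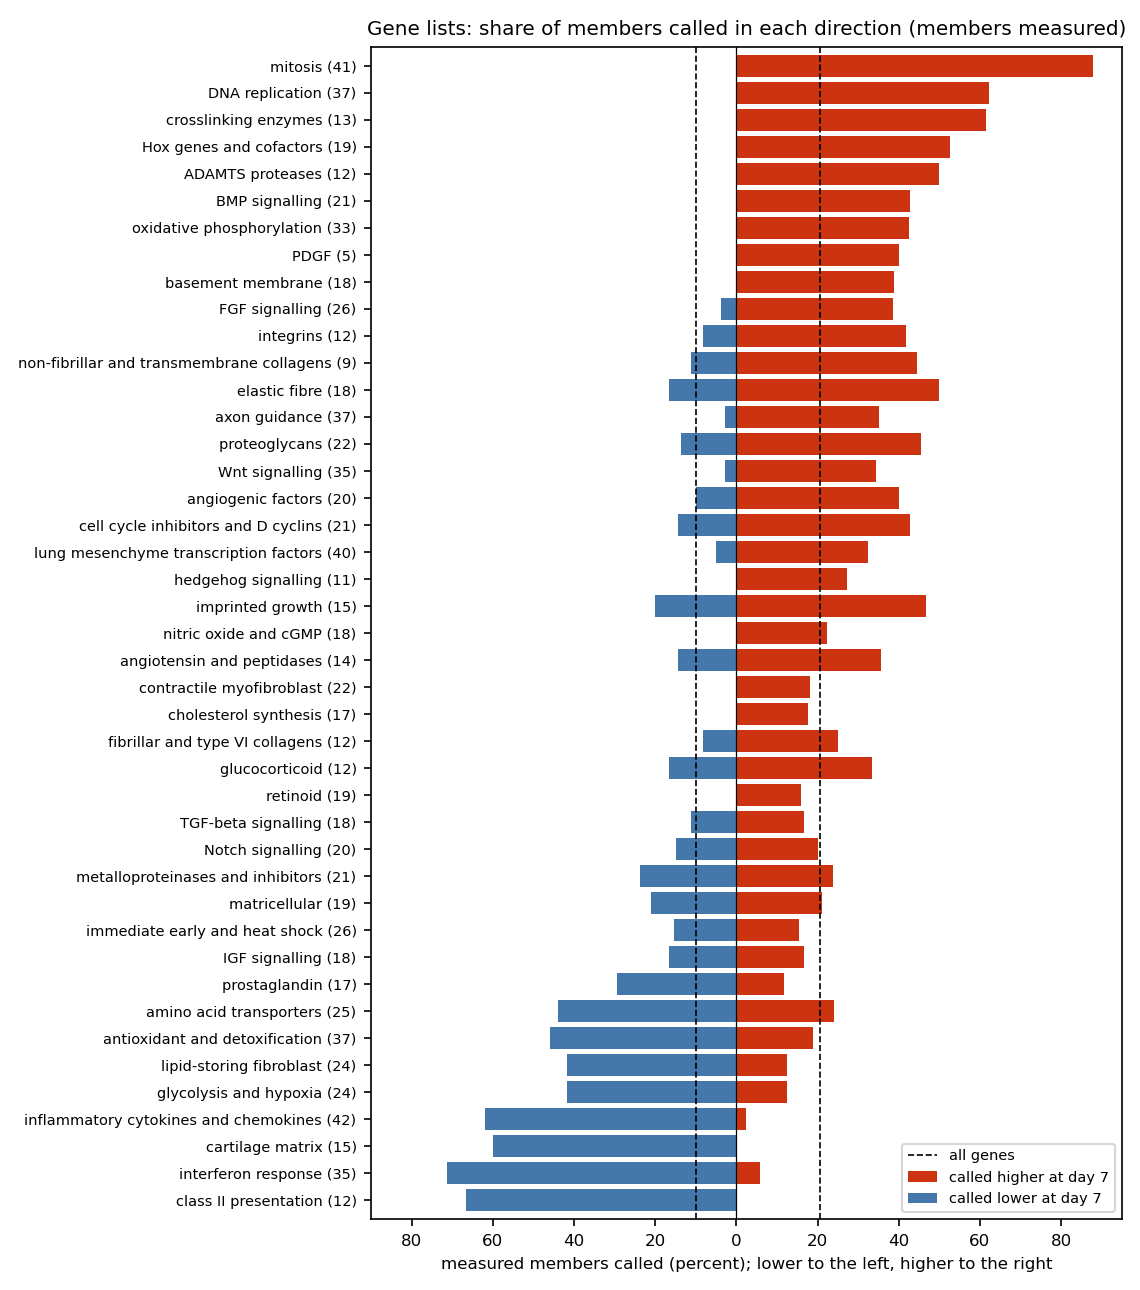
Share of the measured members of each gene list other than the cell type markers (percent, horizontal axis) called higher (red, to the right) or lower (blue, to the left) at day 7 against the flanking average, with the number of measured members in brackets and dashed lines at the shares of all genes, 20.6% and 9.93%. Mitosis (87.8%) and DNA replication (62.2%) reach farthest to the right, and interferon response (71.4%) and class II presentation (66.7%) farthest to the left among these lists.

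Markers of other cells moved in both directions. Endothelial genes were called higher in 14 of 30 and lower in 2 (46.7% and 6.67%, against 20.6% and 9.93% of all genes, median 0.45). Tmem100 (2.27 ± 0.22, 0.07 in another probe set), Emcn (1.92 ± 0.18) and Cldn5 (1.62 ± 0.19), proteins of lung vessels and capillaries, were above all flanking arrays. Their list mean was 5.79 to 5.93 at day 2, 5.95 to 6.29 at day 7 and 5.29 to 5.63 at day 21. Endothelial genes share this direction with the angiogenic and guidance genes above, and the part of endothelial cells in those groups was not tested. Pericyte and smooth muscle genes were called higher in 12 of 21 (57.1%), but in 6 under either scaling and in 7 without any single day 7 array.

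Epithelial markers were called in both directions, those of the airway at shares near those of all genes. Of 18 airway epithelial genes 3 were called higher and 2 lower (16.7% and 11.1%, against 20.6% and 9.93% of all genes). The airway list mean was 4.92 to 5.15 over all 9 arrays. The club cell secretory gene Scgb1a1 was lower at day 7 (-2.76 ± 0.27) and the axonemal dynein Dnah7 higher (2.47 ± 0.21, from flanking levels below the low end). Alveolar epithelial markers had a list mean of 6.33 to 6.42 at day 2, 6.03 to 6.45 at day 7 and 6.36 to 6.73 at day 21, overlapping between days. Of 9 mesothelial genes 0 were called higher and 1 lower (11.1%, near the 9.93% of all genes). The latter was Msln (-2.16 ± 0.38), and the list had a median of -0.44. Lower calls of the mesothelial list came to 3 with arrays centred, quantile normalized, with dim probe sets left out, with the litter block or without day 7 array 2. They came to 4 without day 21 array 3 and to 2 without day 2 array 1. The mesothelial list mean was 5.51 to 5.85 at day 2, 4.88 to 5.52 at day 7 and 5.27 to 6.20 at day 21, with overlap. Granulocyte and mast cell markers were called lower in 11 of 22 and higher in 0 (50% lower, against 9.93% of all genes). Of the 11, 2 were without overlap, against 72.0% of all genes called lower.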

How the data were processed

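RNA from 9 litter pools, 3 per day, was hybridised to 9 arrays. The authors deposited linear intensity values per probe set, obtained, per the submitters' processing notes, by RMA as implemented in affy, with versions, probe set definitions and filters not given in the sources used here. RMA subtracts background, normalizes between arrays and summarises probes, which compresses differences of dim probe sets. Here the log2 of the deposited intensity was taken, as it stood. Its array medians ran from 5.24 to 5.66, so equal scaling of the arrays cannot be assumed.

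Of 31099 probe sets, 57 AFFX controls were left out and 31042 tested. In the platform annotation 20826 have 1 gene symbol, 436 have several and 9780 have none here, and 20758 symbols were found in the reference gene table by Entrez number, with 0 changed. A gene was represented by its brightest probe set over all arrays, giving 14217 genes.

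The two-sided tests came from limma 3.58.1 (lmFit, contrasts.fit and eBayes, run under R 4.3.3), fitted to all 9 arrays with a mean per day. They had 6 residual degrees of freedom and 5.69 from the prior, and were tested on simulated data. The p-values measure the spread between litter pools, and 3 arrays per day limit precision. The labels do not say whether litter numbers pair the days. Same-numbered deviations correlated at 0.41, 0.08 and 0.22 between days 2 and 7, against -0.28 to 0.06 for different-numbered ones. With day 21 they correlated at -0.24 to 0.05, against -0.23 to 0.24. The main fit left the litters unpaired, and whether a number marks a shared litter or batch was not tested.

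The gene lists and the genes described were chosen with earlier results of these data known. Named genes are the 15 largest rises and 15 largest falls without overlap, with informative symbols and not at the low end on the high side, and up to 4 called members of each list; elastic fibre, fibrillar collagen, PDGF, FGF and retinoid members are named called or not. Ptprc, Adgre1 and Csf1r were named as defining markers, and Rsad2 and Irf7 for their promoters. Promoter windows are RefSeq's on GRCr8, the first listed per gene. The alternatives, whose effects close the text, were the scaling, a filter on dim probe sets, the variance prior, the litter as a block, the macrophage list as a covariate, a 2-fold threshold, other probe sets and leaving out each array.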

Additional observations from a re-analysis of the deposited data

How the results depend on the processing

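The counts of probe sets higher and lower stayed within 1.5 times of 4851 and 2451 with arrays centred on their medians (3441 and 3027), further quantile normalization (4397 and 3502), dim probe sets left out (4828 and 2408), a trended robust variance prior (4861 and 2543) and the litter number as a replicate block (4729 and 2412). Leaving out each array in turn gave 3745 to 4823 and 1863 to 2442. A 2-fold threshold left 1403 and 907. Centring lowered the higher probe sets without overlap from 3426 to 1924. The macrophage covariate left 0 calls in every count. With it Col5a1 (-0.29), Pdgfrb (-0.28), Aldh1a1 (-0.64), Csf1r (0.29) and Ptprc (0.66) changed sign. Csf1r and Ptprc are themselves macrophage markers, the genes whose mean was the covariate, so their changes are partly built into the fit. The other 157 of the 162 called genes checked kept their direction and were no longer called. Tbx5 (1.96), Akr1b8 (-3.18), Mmp13 (-3.72) and Col2a1 (-5.89) are examples. The cause of these differences was not tested. The litter block ended the call of Pdgfrb (0.53, limma adjusted p = 0.0505) and brought in Dusp6 (limma adjusted p = 0.0466), and changed no other call among the genes named. Of 72 other probe sets of the named genes, 45 gave the same call, with direction left uncompared where neither probe set was called. In the same direction as the brightest, 20 were not called where it was and 3 were called where it was not. The remaining 4 differed in sign with the brightest or the other called, those of Slit2 (-0.024), Col1a2 (0.53), Pdgfrb (-0.19) and Igf2 (0.13). Signal near background limits the size of differences that end at the low end.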

Other observations

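Several genes outside the lists stood apart at day 7 without overlap, and they were picked with their values in view. The planar cell polarity genes Ptk7 and Prickle1 were higher, with contrasts of 2.09 ± 0.15 and 2.20 ± 0.19. Ptk7 measured log2 9.18, 9.12 and 9.03 at day 2, 9.91, 9.73 and 10.02 at day 7 and 6.75, 6.51 and 6.18 at day 21. The transcription factors Meox2 (2.35 ± 0.17) and Zfp423 (2.31 ± 0.15), known from mesoderm and preadipocytes, were higher too. So were genes best known from excitable cells, the calcium channel subunit Cacna1d (2.37 ± 0.21), the sodium channel subunit Scn3b (2.18 ± 0.18) and the glutamate receptor subunit Gria3 (2.07 ± 0.18). In each of these 7 genes day 2 was the nearer flank.

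Arg1 and Ass1, both enzymes of arginine metabolism, were lower. Arg1, which splits arginine, measured 8.81, 9.18 and 8.60 at day 2, 7.13, 6.78 and 5.80 at day 7 and 8.96, 8.44 and 9.41 at day 21 (contrast -2.33 ± 0.28), about equally far below day 2 (-2.29) and day 21 (-2.37). Ass1, which recycles it, had -2.61 ± 0.37. The secreted protease inhibitor Slpi (-2.38 ± 0.29) and the extracellular chaperone Clu (-2.36 ± 0.25) were lower as well. The macrophage list was lowest on the same 3 arrays, and its part in these values was not tested.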
